A study of Phaseolus coccineus with 4 samples.

Results

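Phosphoenolpyruvate carboxylase genes were examined in scarlet runner bean (Phaseolus coccineus) embryos at the globular stage, in the embryo proper, which forms the plant, and the suspensor, the stalk that holds it. Members were all soybean probe sets of the array whose single gene symbol in the platform annotation begins with PEPC or PPC and a number and names the carboxylase, with the carboxykinase and the carboxylase kinases left out. This gave 9 of 37593 soybean probe sets, for 5 of the 6029 symbols that name a soybean probe set alone: 1 probe set each for PEPC16, PEPC17 and PPC1, 2 for PEPC4 and 4 for PEPC7. The symbol chose the members, but the family itself was selected on its signals in suspensor and embryo proper, the same values that are described here. Differences between the regions are therefore descriptions of these arrays, with no p-value given for any single member and nothing read from how many passed a test.

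Each region was represented by 2 samples, called biological replicates in the labels, which do not say from which plants they came. The plants, Hammond's Dwarf Red Flower by cultivar, carried no treatment or transgene named in the labels, and seeds were fixed 6 days after hand pollination. The regions were cut with a laser from paraffin sections of 6 µm, and about 60 and 75 ng of RNA from embryo proper replicates 1 and 2, and 106 and 137 ng from suspensor replicates 1 and 2, was amplified before labelling. Bean RNA was hybridised to probes made for soybean, so a low signal can also come from sequence differences, and a symbol names the soybean gene the probes were made from.

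Phosphoenolpyruvate carboxylase adds bicarbonate to phosphoenolpyruvate and gives oxaloacetate and phosphate. Outside the leaves of C4 and CAM plants it is known for refilling the citrate cycle when its acids are drawn off for amino acids and other products, a role well described in legume nodules and developing seeds. The plant enzyme is inhibited by malate, and a dedicated kinase, PPCK, makes it less sensitive to malate by adding a phosphate near its N-terminus.

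Signals are the authors' intensities on a linear scale. An array's background level was set at the 95th percentile of its probe sets for Phytophthora and nematode, which share the array: 881 and 873 for embryo proper replicates 1 and 2, and 925 and 1034 for suspensor replicates 1 and 2. Of the 9 carboxylase probe sets, 1 and 2 were above it on the embryo proper arrays and 4 on each suspensor array. Over all soybean probe sets the share above background ran the other way, with 23.3% and 23.0% for embryo proper against 21.8% and 19.5% for suspensor. The median signal of 11 hybridisation control probe sets also differed by region, at 52554 and 73493 for embryo proper against 113783 and 172462 for suspensor. Its part in the carboxylase signals was not tested.

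Neither labelled region could be checked by markers of its own. Of the suspensor markers, 1 of 10 matched a symbol, the gibberellin synthesis gene GA20OX3, and it was below background on all 4 arrays. No marker matched for embryo proper, endosperm or vascular tissue. Of 8 seed coat markers 3 matched, DFR1, ANR1 and F3H, with a summed signal over their 4 probe sets of 1905 and 1704 in embryo proper, against 1711 and 2134 in suspensor. DFR1 and ANR1 were below background on every array. For F3H, 1 probe set was above it on 3 arrays, at 904 on embryo proper array 2 and 1341 and 1477 on the suspensor arrays. The other F3H probe set ran the other way below background, at 522 and 436 in embryo proper, against 59.0 and 29.6 in suspensor. The part of seed coat tissue in the carboxylase signals was not tested.

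PEPC7, by 1 of its 4 probe sets, and PPC1 were above background in suspensor and below it in embryo proper. The PEPC7 probe set Gma.62.1.S1_a_at gave signals of 126 and 211 in embryo proper, against 2450 and 1714 in suspensor. The regions did not overlap, and the lower suspensor signal was 8.12 times the higher embryo proper signal. The means were 169 ± 59.9 (SD, n = 2) in embryo proper and 2082 ± 521 (SD, n = 2) in suspensor.

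PPC1, read by Gma.62.3.A1_at, gave signals of 38.9 and 281 in embryo proper, against 1179 and 1273 in suspensor. The suspensor arrays lay close together, the embryo proper arrays lay far apart, and the regions again did not overlap. The means were 160 ± 171 (SD, n = 2) and 1226 ± 66.8 (SD, n = 2). Suspensor signals of PPC1 were 1.27 and 1.23 times the background level, nearer to it than those of PEPC7, which were 2.65 and 1.66 times. With background at the 99th percentile, PEPC7 was still above it on both suspensor arrays and PPC1 on neither.

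Because both embryo proper arrays gave a signal below background for these genes, only a lower bound can be given for the fold. It sets the mean log2 suspensor value against, per embryo proper array, the lowest soybean signal above background or the probe set's own, whichever was higher. By this bound the suspensor signal was higher by at least 2.31-fold for PEPC7 and at least 1.39-fold for PPC1. The measured values differed by more, by 3.52 for PEPC7 and 3.28 for PPC1 on the scale of log2(intensity + 16). The PPC1 value rests on how far below background the embryo proper arrays lay, and was 2.07 without embryo proper replicate 1 and 4.5 without replicate 2. In samples of tissue, fewer cells that hold a transcript and less of it per cell cannot be told apart.

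PEPC16 was above background on 1 embryo proper array and both suspensor arrays, with signals of 823, which is below background, and 1442 in embryo proper, against 2579 and 2203 in suspensor. Both suspensor arrays lay above both embryo proper arrays, by a factor of 1.53 between the nearest pair. The means were 1132 ± 437 (SD, n = 2) and 2391 ± 266 (SD, n = 2), a log2 difference of 1.12 or 2.17-fold. The embryo proper replicates differed by 0.8 on the same scale and the suspensor replicates by 0.23.

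PEPC17 was the member above background on all 4 arrays, and the tested member with the lower mean in suspensor. Its signals were 1330 and 1775 in embryo proper, against 1167 and 1372 in suspensor, with overlapping regions. The means were 1552 ± 315 (SD, n = 2) and 1269 ± 145 (SD, n = 2). The log2 difference of -0.28 was smaller than the gap of 0.41 between the embryo proper replicates. With background at the 99th percentile it was above it on 1 embryo proper array and no suspensor array.

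**Figure D1:**
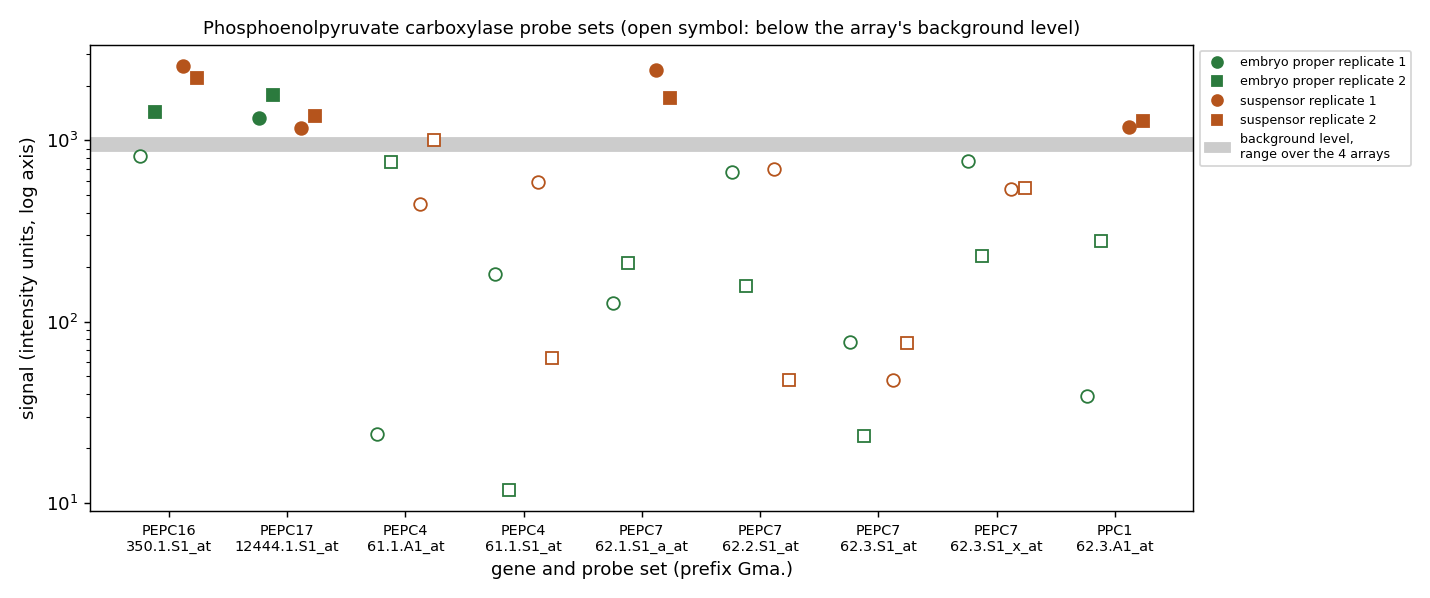
Signal of each of the 9 carboxylase probe sets on each array, on a log axis of intensity units, with embryo proper in green, suspensor in orange and the range of the background level in grey. Filled symbols are above the array's own background level: PEPC17 is filled on all 4 arrays, PEPC7 (62.1.S1_a_at) and PPC1 on the suspensor arrays alone, and the 5 other probe sets of PEPC4 and PEPC7 on none.

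The other 5 probe sets were below background on all 4 arrays and give no fold. For PEPC4, Gma.61.1.A1_at gave signals of 23.9 and 761 in embryo proper, against 448 and 999 in suspensor, where the second lay just under the level of 1034. The PEPC4 probe set Gma.61.1.S1_at gave signals of 183 and 11.8 in embryo proper, against 588 and 63.1 in suspensor. Replicates of the same region differed widely in both probe sets, and the regions overlapped.

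The further PEPC7 probe sets did not show the pattern of Gma.62.1.S1_a_at above background. Gma.62.2.S1_at gave signals of 667 and 157 in embryo proper, against 694 and 47.7 in suspensor. Gma.62.3.S1_x_at gave signals of 769 and 231 in embryo proper, against 540 and 544 in suspensor. Gma.62.3.S1_at was the dimmest, between 23.4 and 76.9 on the 4 arrays.

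The probe sets are not independent readings. PPC1 and all 4 PEPC7 probe sets share the identifier stem Gma.62, so the array's design placed them in 1 cluster of similar sequences, and the 2 of PEPC4 share the stem Gma.61. The PPC1 probe set and the PEPC7 probe sets Gma.62.3.S1_at and Gma.62.3.S1_x_at are annotated with the same source sequence, although under different gene symbols. In Affymetrix naming S and A mark opposite strands of a cluster sequence, so Gma.62.3.A1_at and Gma.62.3.S1_at were made to read opposite strands of that sequence. The A probe set was above background on both suspensor arrays and the S probe set was below 77 on each of the 4 arrays. The sources used here do not say which strand is that of the messenger RNA. The endings a and x mark probe sets with probes shared with other transcripts, so Gma.62.1.S1_a_at and Gma.62.3.S1_x_at may read more than 1 transcript. Whether PEPC7 and PPC1 are separate transcripts in the bean was not tested.

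The regions were compared by limma over the 8972 soybean probe sets whose signal exceeded background on 2 or more arrays, with the Benjamini-Hochberg adjustment. Of the 9 carboxylase probe sets 4 entered, 1 each of PEPC7, PPC1, PEPC16 and PEPC17. PEPC7 and PPC1 entered through their suspensor signals alone, so a higher value there is built into their entry. As a description, none of the 4 had an adjusted p under 0.05 (limma), and 2 had an unadjusted p under 0.05. Over all tested probe sets 2.75% passed at the adjusted threshold, 0.892% with more signal in suspensor and 1.86% with more in embryo proper, and 20.1% had an unadjusted p under 0.05.

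Signals on both suspensor arrays lay above both embryo proper arrays for 3 of the 4, PEPC7, PPC1 and PEPC16, as they did for 19.8% of all tested probe sets. Detection in suspensor alone, on both of its arrays and on neither embryo proper array, was found for 2 of the 4, PEPC7 and PPC1, and for 4.69% of all tested probe sets. A log2 difference at least as large as that of PEPC7 was found in 24 tested probe sets, or 0.267%, and one at least as large as that of PPC1 in 39, or 0.435%. These positions describe the measured values, in which the embryo proper signals of both genes are below background. Because the family was selected on these same signals, the positions do not measure how unusual the 2 genes are.

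**Figure D2:**
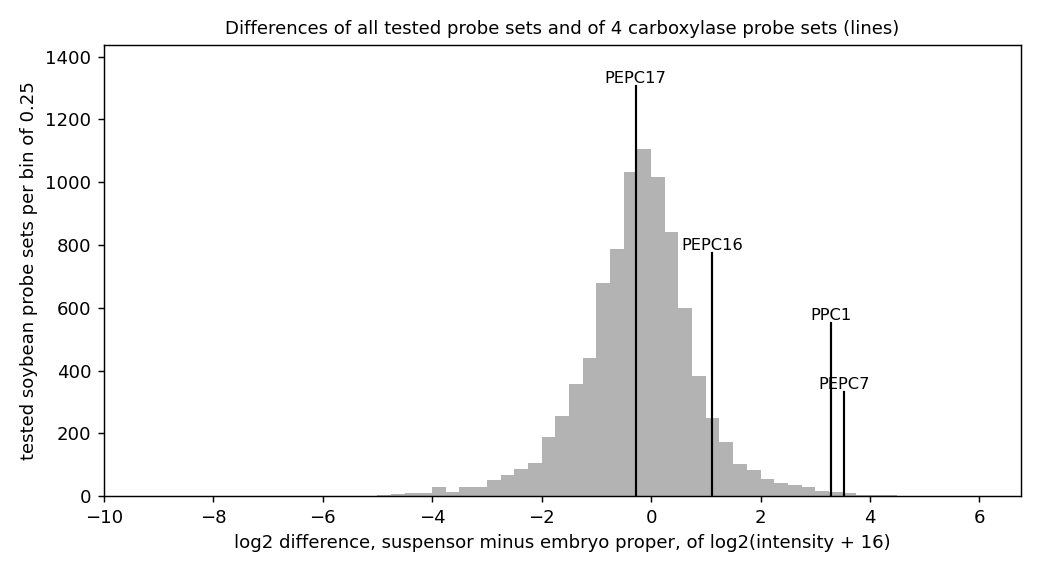
Number of tested soybean probe sets per bin of the log2 difference, suspensor minus embryo proper, of log2(intensity + 16), with a vertical line for each tested carboxylase probe set; line heights carry no value. PEPC17 at -0.28 lies in the bulk of the probe sets, PEPC16 at 1.12 on its right flank, and PPC1 at 3.28 and PEPC7 at 3.52 in the right tail.

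The spread between replicates set how much each difference can bear. On the log2(intensity + 16) scale the median gap between replicates over tested probe sets was 0.36 in embryo proper and 0.56 in suspensor. In suspensor PEPC7 had a gap of 0.51, PPC1 of 0.11, and PEPC16 and PEPC17 of 0.23 each. In embryo proper the gaps were 0.67 for PEPC7, 2.43 for PPC1, 0.8 for PEPC16 and 0.41 for PEPC17, all above the median of tested probe sets. Those of PEPC7 and PPC1 lie between signals that were both below background. The standard errors of the log2 differences, at 0.8 for PEPC7, 1.59 for PPC1, 0.42 for PEPC16 and 0.39 for PEPC17, also carry the variance trend over signal that the fit applies. Without that trend they were 0.43 for PEPC7, 0.84 for PPC1 and 0.43 for PEPC16.

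The 4 tested carboxylase genes differed among themselves in their profile over the arrays. Likeness was measured as the distance between log2(intensity + 16) profiles over the 4 arrays, each centred on its mean, with 0 for identical profiles. PEPC7 and PPC1 were 1.34 apart, PEPC16 was 2.42 from PEPC7 and 2.47 from PPC1, and PEPC17 was 3.84 from each of PEPC7 and PPC1 and 1.46 from PEPC16. With 4 arrays that share 1 contrast, such distances mainly follow the size of the difference between regions.

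Among 424 tested probe sets of other genes with a symbol, those nearest to PEPC7 were ADH2, an alcohol dehydrogenase, at 0.47, MET2 at 0.75, GASA14, of the gibberellin-regulated peptide family, at 0.83, OSBP, an oxysterol-binding protein, at 1.12, and DXR1, a reductoisomerase of plastid isoprenoid synthesis, at 1.19. ADH2, whose signals of 2487 and 5005 in embryo proper, against 34664 and 28782 in suspensor, were above background on all arrays, had a log2 difference of 3.16. DXR1, below background in embryo proper as PEPC7 was, had signals of 287 and 134 there and 2977 and 1989 in suspensor.

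The gene nearest to PPC1 was AAT, an aspartate aminotransferase, at 0.51, by its probe set Gma.3139.1.S1_s_at. That probe set gave signals of 49.6 and 566 in embryo proper, both below background, against 1907 and 2116 in suspensor. By the lower bound suspensor was higher by at least 2.27-fold. As for PPC1 the first embryo proper array was the lower. Both genes were below background on the embryo proper arrays, so that part of the distance compares values under the background level. NRP-A at 0.68, ADH2 at 1.05, ITPK4, an inositol phosphate kinase, at 1.24 and the transcription factor WRKY24 at 1.26 came next.

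Nearest to PEPC16 were DMT1 at 0.17, SPK-3 at 0.21, PCS1 at 0.22, FTRC, a subunit of ferredoxin-thioredoxin reductase, at 0.24 and SODB2, a superoxide dismutase, at 0.26. FTRC gave signals of 886 and 1299 in embryo proper, against 2786 and 2472 in suspensor, close to the 4 values of PEPC16. Nearest to PEPC17 were RAB2, a small GTPase of the secretory path, at 0.08, HGS at 0.15, COP10 at 0.18, NIR at 0.19 and HIR1 at 0.23.

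**Figure D3:**
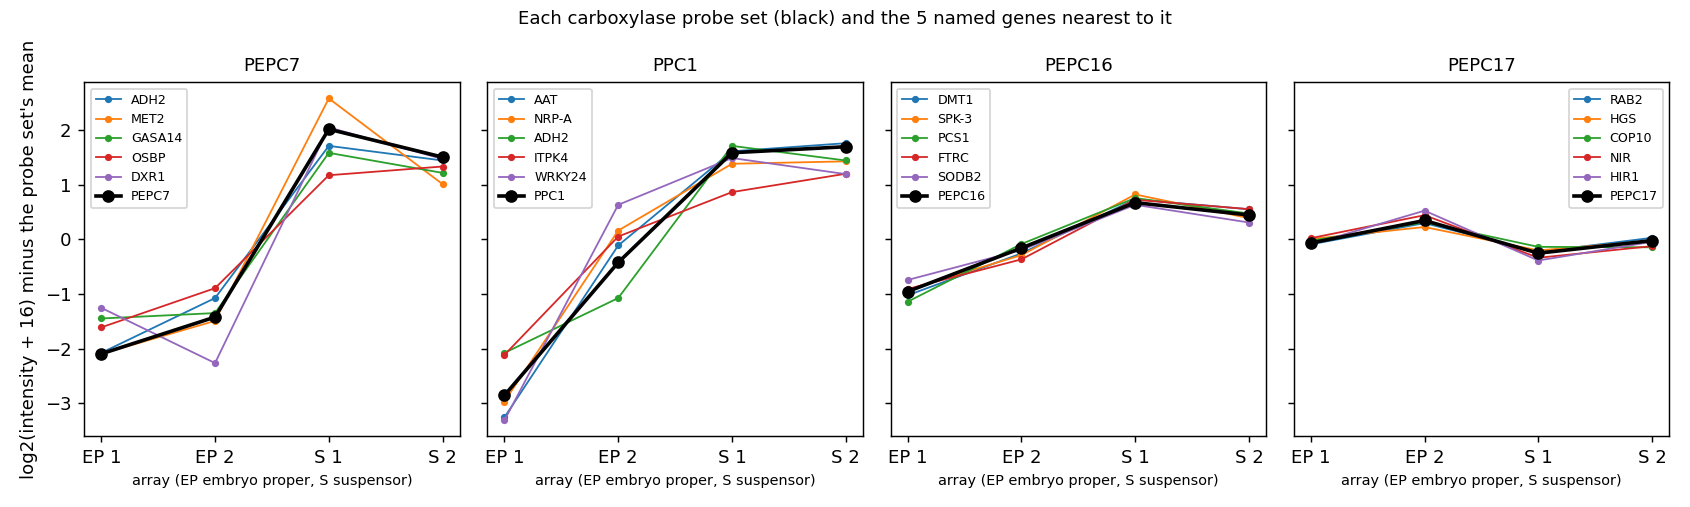
Log2(intensity + 16) minus each probe set's mean over the 4 arrays, for each tested carboxylase probe set in black and the 5 named genes nearest to it in colour. PEPC7 and PPC1 step up between embryo proper and suspensor arrays, PEPC16 steps up less, and PEPC17 stays near 0.

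The kinase that phosphorylates the carboxylase is listed with 4 genes, each with 1 probe set, and 1 of them, PPCK4, was above background on enough arrays to be tested. PPCK4 gave signals of 1426 and 1789 in embryo proper, against 2214 and 1595 in suspensor, above background on all 4 arrays and with overlapping regions. Its log2 difference was 0.23 with a standard error of 0.38 and did not pass in limma (adjusted p = 0.76). PPCK3 was above background on embryo proper array 2 alone, at 997, against 676 on array 1 and 562 and 553 in suspensor. PPCK2 was below background throughout, at 160 and 583 in embryo proper, against 428 and 908 in suspensor, and PPCK1 was at most 90.1 on any array.

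**Figure D4:**
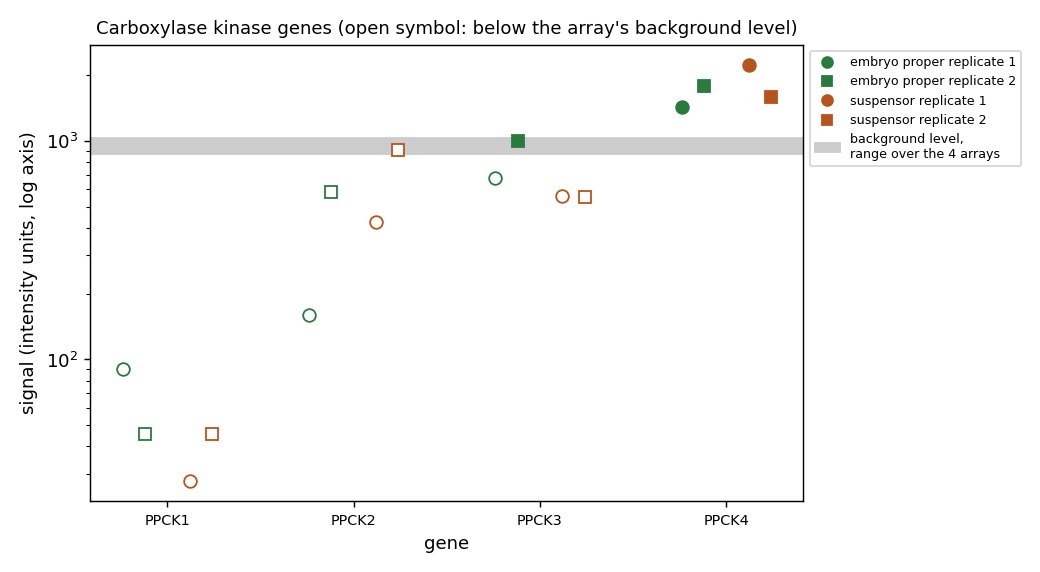
Signal of the 4 carboxylase kinase genes on each array, on a log axis of intensity units, with embryo proper in green, suspensor in orange and the range of the background level in grey. PPCK4 is filled, that is above the array's own background level, on all 4 arrays with the regions intermixed, and PPCK1 and PPCK2 are open on all.

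Genes around the carboxylase in carbon and nitrogen metabolism were taken from 13 lists, of which 3 matched no symbol: phosphoenolpyruvate carboxykinase, malic enzyme, and enzymes of phosphoenolpyruvate supply and use. The others matched 31 genes, of which 10 were tested by their brightest tested probe set. In limma 1 of these was higher in suspensor, 0 were higher in embryo proper and 9 did not pass. The share higher in suspensor over all tested probe sets was 0.892%. At an unadjusted p under 0.05 the counts were 3 and 0, where 6.55% of all tested probe sets were higher in suspensor, and the median log2 difference was 0.45, beside -0.18 over all tested probe sets. The gene that passed was SS, a sucrose synthase, which cleaves the sucrose delivered to a sink, with signals of 13000 and 10125 in embryo proper, against 72200 and 65246 in suspensor. Its log2 difference was 2.58 (limma, adjusted p = 0.014). The difference was 2.76 without embryo proper replicate 1 and 2.4 without embryo proper replicate 2. Those fits rest on 1 embryo proper array, so they are given as sizes alone and no pass is read from them. With no variance trend SS did not pass (limma, adjusted p = 0.056). In that setting 21 of 8972 tested probe sets passed with more signal in suspensor, against 80 as reported. A further SS probe set, GmaAffx.90145.1.S1_s_at, gave 512 and 394 in embryo proper, both below background, against 1248 and 1264 in suspensor. By the lower bound its suspensor signal was higher by at least 1.42-fold, and it did not pass (limma, adjusted p = 0.23). The remaining SS probe set was below background on every array.

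Of the enzymes that act on oxaloacetate, MDH-1, a malate dehydrogenase, gave signals of 4193 and 4792 in embryo proper, against 8554 and 5937 in suspensor, with a log2 difference of 0.67, which did not pass (limma, adjusted p = 0.31). A further MDH-1 probe set stood at 0.38 (limma, adjusted p = 0.57). AAT makes aspartate from oxaloacetate. By its brightest probe set, GmaAffx.93265.1.S1_s_at, it had signals of 1246 and 461, the latter below background, in embryo proper, against 3087 and 1158 in suspensor, a log2 difference of 1.3 with overlapping regions (limma, adjusted p = 0.32). It was 0.6 without embryo proper replicate 2 or without suspensor replicate 1, and 2.0 without either of the other arrays. The AAT probe set nearest to PPC1 also did not pass (limma, adjusted p = 0.17). The asparagine synthetase gene AS2 was below background by both of its probe sets.

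GS1alpha, a cytosolic glutamine synthetase that fixes ammonium on glutamate, gave signals of 1897 and 1819 in embryo proper, against 5578 and 4380 in suspensor, with no overlap. Its log2 difference of 1.4 did not pass (limma, adjusted p = 0.077), and it did pass after quantile normalization (adjusted p = 0.031), when arrays were centred on the tested probe sets (adjusted p = 0.045), with background at the 99th percentile (adjusted p = 0.041) and when only probe sets above background on all 4 arrays were tested (adjusted p = 0.018). The citrate cycle gene IDH1, an isocitrate dehydrogenase, gave signals of 1092 and 979 in embryo proper, against 1970 and 2196 in suspensor, with a log2 difference of 1, which did not pass (limma, adjusted p = 0.2) except when only probe sets above background on all 4 arrays were tested (adjusted p = 0.036). The values of IDH, at -0.01, and the glutamate dehydrogenase GDH2, at -0.09, were near 0 and changed sign with the scaling of the arrays. A further GDH2 probe set ran toward embryo proper, at 521, below background, and 1064 there, against 23.5 and 23.4 in suspensor, and was not tested.

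GAPC1, a glyceraldehyde-3-phosphate dehydrogenase of glycolysis, and ALAAT1, an alanine aminotransferase, had lower means in suspensor, with log2 differences of -0.78 (limma, adjusted p = 0.36) and -0.51 (limma, adjusted p = 0.55), and overlapping regions. The further probe set of each ran the other way and was not tested. That of GAPC1 gave 225 and 466 in embryo proper, against 181 and 2054 in suspensor, where only the last was above background. That of ALAAT1 gave 321 and 70.5, against 139 and 498, all below background. None of the 6 genes matched by the list for plastid acetyl-CoA and fatty acid synthesis was tested, nor was the carbonic anhydrase CA1, above background on embryo proper array 1 alone at 1089.

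**Figure D5:**
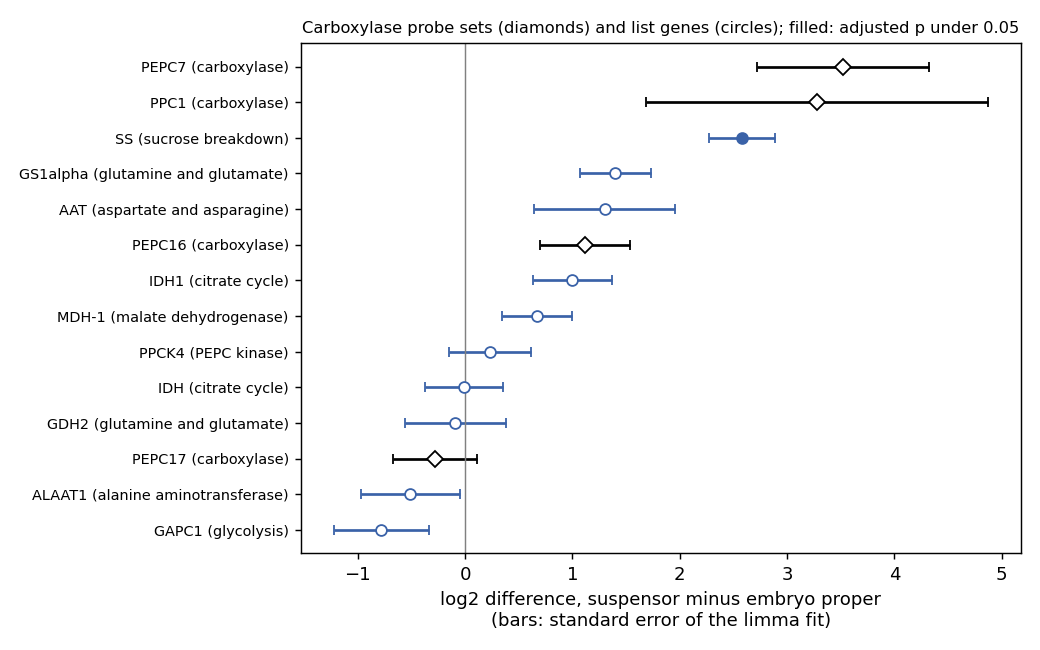
Log2 difference, suspensor minus embryo proper, with the standard error of the limma fit as bars, for the 4 tested carboxylase probe sets (diamonds) and the 10 tested list genes (circles, list in brackets). SS is filled, having an adjusted p under 0.05; PEPC7 and PPC1 lie farther right with wider bars and are open.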

How the data were processed

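The authors deposited 1 intensity per probe set and array on a linear scale, for which the submitters' processing notes name GCOS 1.3; its summary algorithm is not given in the sources used here, nor are detection calls. With 2% of probe sets trimmed at each end, each array had a mean of 500. Regions were compared on log2(intensity + 16) in limma 3.58.1 under R 4.3.3 (lmFit, eBayes with a variance trend) over soybean probe sets above background on at least 2 of 4 arrays. The script was tested on simulated data with known differences. It was required to return their mean size, which does not test the calls made here. There were 2 arrays per region, which limits the precision. The labels call them biological replicates but name no separate plants, so the spread behind each p-value may not be that between plants.

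Symbols came from the platform annotation: a single symbol was given for 8677 soybean probe sets, a LOC placeholder in 7001 of them, while 370 had several and 28546 none. The bean reference table of 34063 genes matched no member, so no positions or sequences are given. The members and lists were chosen with earlier results of these data known. List symbols were matched whole, and a hyphen or Greek letter before or after the number was allowed once the annotation had been read. PK3, PK6 and PGIP, which matched by letters alone, were left out as protein kinases and a polygalacturonase inhibitor. Named were all carboxylase probe sets, up to 4 tested genes per list by smallest p, and the 5 genes nearest to each tested member in profile; the remaining kinases, AS2, CA1 and further probe sets were named after their values were seen. Same-numbered arrays of the regions did not deviate together (correlation -0.0242 across tested probe sets), and the labels tie no batch or plant to a number, so the fit was unpaired. Alternatives, 15 in all, covered the pseudocount (1 and 64), scaling, background level, filter, shared probes, variance trend, replicate block and each array left out.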

Additional observations from a re-analysis of the deposited data

How the results depend on the processing

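Carboxylase probe sets with an adjusted p under 0.05 and a higher suspensor signal numbered 0, and 1, PEPC7, with no filter on dim probe sets and with no variance trend; they numbered 0 in the other settings, 0 to 0 when 1 array was left out, and 0 with the replicate block. Not every setting tested all 4: PPC1 and PEPC17 were left out with background at the 99th percentile, PEPC7 without shared probes, and PEPC7, PPC1 and PEPC16 where detection on all 4 arrays was asked for. None was higher in embryo proper in any setting. Since the family was selected on these signals, a pass supports no difference. Of the 54 values of single carboxylase probe sets under these settings, 52 kept their direction and their side of the threshold, 2 passed and none changed sign. The log2 difference lay between 3.19 and 3.86 for PEPC7, 2.07 and 4.5 for PPC1, 0.72 and 1.52 for PEPC16 and -0.48 and -0.07 for PEPC17 when 1 array was left out, a fit in which the remaining array is taken to vary as the other region does.

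List genes higher in suspensor, 1 as reported, numbered 2 when arrays were centred on the tested probe sets, with quantile normalization and with background at the 99th percentile. They numbered 3 with detection on all 4 arrays, 0 with no variance trend and 1 with the replicate block. Over all tested probe sets, passes in that direction numbered 80 of 8972 as reported. They were 129 and 192 of 8972 with the centring and with quantile normalization, and 134 of 5267 at the 99th percentile. With detection on all 4 arrays they were 192 of 4480, with no variance trend 21 of 8972, and with the replicate block 138 of 8972. No list gene was higher in embryo proper in any setting with 2 arrays per region. When 1 array was left out a region rested on 1 array, so these counts do not cover those fits. Fewer probe sets are tested under a stricter filter. Elsewhere the cause was not tested. Genes near 0 changed sign without passing: with quantile normalization IDH was 0.16 and with arrays centred on the tested probe sets 0.12, and GDH2 was 0.06 and 0.04 likewise. When 1 array was left out IDH ranged from -0.29 to 0.28, GDH2 from -0.7 to 0.53, ALAAT1 from -1.07 to 0.05, AAT, which kept its sign, from 0.6 to 2.0, and PPCK4 from 0.0 to 0.47. The median log2 difference of all tested probe sets, -0.18, became -0.06 when these were used to centre the arrays and -0.35 when the Phytophthora and nematode ones were. Signal over background limits the rest: 5 of the 9 carboxylase probe sets were below background on every array.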
